A study of Mus musculus with 196 samples.

Results

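The response of Zglp1 knockout cells to bone morphogenetic protein 2 with retinoic acid (B2RA) was described at day 9 of culture, from the cloneE5 and cloneG10 libraries labelled control or B2RA. These were 8 of 196 labelled samples, with 2 control and 2 B2RA libraries in each clone. The series profiled PGCLCs, mouse cells that resemble primordial germ cells and come from cultured embryonic stem cells, together with germ cells of embryos. Every knockout library carried the genotype Prdm1-mVenus Tg/0; Dppa3-ECFP Tg/0; Zglp1-/-, in a 129S1:C57BL/6=1:1 background. PGCLCs were expanded on m220 feeder cells and the cultured cells were sorted for the Dppa3-ECFP reporter, so Dppa3 was the gate gene and its level is no finding. 3 other day 9 sets were used beside them. These were 4 BMP2 libraries of the same 2 knockout clones, 4 control and 4 B2RA libraries of Stra8 knockout clones (cloneB6 and cloneF6, the same reporters with Stra8-/-), and 2 B2RA libraries of H18, the line with the reporters and no knockout. Titles of the H18 libraries give day 9, while their stage field gives culture day 3.5, and H18 had no control library at day 9. Each knockout line is 1 clone, and the labels do not say whether replicates were separate cultures, so p-values measure the spread between libraries, which may be technical.

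Female germ cells leave the primordial state when they enter meiosis as oocytes. BMP ligands act through SMAD proteins on targets such as the Id genes, and retinoic acid acts through nuclear receptors that bind direct repeats near genes such as Cyp26a1, Rarb and Stra8. ZGLP1 is a GATA-like zinc finger protein that acts downstream of BMP in female germ cells, and STRA8 and the cohesin subunit REC8 prepare the chromosomes for meiosis.

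Values are RPM, the reads of a gene for every 1000000 reads of endogenous genes in that library. Changes were tested with limma on the log2(RPM + 1) scale, which understates changes of low genes, and a gene was called at an adjusted p under 0.05 and a change of at least 1 (2-fold). The 8 libraries held 985914 to 3795513 reads and detected 11850 to 16050 genes. B2RA replicate 2 of clone E5 was the shallowest and stood apart. Its Pearson correlation with replicate 1 was 0.8 over genes, against 0.921 to 0.959 for the replicate pairs of the other 3 groups, so counts are given with and without it. Of 9980 genes tested, 662 rose (6.63%) and 432 fell (4.33%) with B2RA, and without that library 603 rose and 276 fell. With TMM scaling 431 rose and 552 fell, so the share of calls that were rises went from 60.5% to 43.8%, and the median change of all genes tested went from 0.11 to -0.05. In bulk RNA, fewer cells of a type and less RNA per cell cannot be told apart.

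Zglp1 tags were present in each of the 8 libraries. They measured 1.06, 3.35, 2.91 and 3.24 RPM in the controls (clone E5 replicates 1 and 2, then clone G10 replicates 1 and 2, the order used throughout) and 32.7, 20.3, 16.3 and 25.6 RPM with B2RA. All B2RA libraries lay above all controls, a log2 change of 2.78 ± 0.35 (SE, limma adjusted p = 4.6e-10). Zglp1 lies on the minus strand at chr9:21062393-21067093 (GRCm38), and since the deleted part is not given in the sources used here, these 3′ tags do not check the deletion.

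The largest rises with B2RA were in BMP targets, mesodermal transcription factors, a group of genes of distal chromosome 7 and Stra8. The largest falls were in Tdgf1, which encodes the Nodal co-receptor, and in Otx2, Sox11, Robo3 and Nnat, all known from the nervous system. A gene was tested if at least 2 compared libraries reached 10 RPM. Among the largest rises, Hamp, Hand1, Msx1, Fut4, Slc22a18, Tbx2, Irx4, Ebf4 and Tnni2 passed this filter only through B2RA libraries. Among the falls, Tdgf1, Otx2, Robo3, Crmp1, Fut9 and Hsd17b11 passed it only through controls. The filter set the direction of these genes. Of 662 rises, 653 went the same way in both clones and 517 had no overlap between the 4 B2RA and the 4 control libraries, against 1317 of 9980 genes tested (13.2%) with all B2RA libraries above all controls. Tested clone by clone, 552 genes rose (5.91%) and 604 fell (6.47%) in clone E5, and 559 rose (5.99%) and 192 fell (2.06%) in clone G10. Of 432 falls, 407 went the same way in both clones and 270 had no overlap, against 615 genes (6.16%) with all B2RA libraries below. The 15 largest rises and the 14 named of the 15 largest falls kept their calls in all 17 alternatives tried for this comparison, except that Aire was tested in 15 of them. They were chosen for large changes without overlap, which partly fixed this result.

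**Figure D1:**
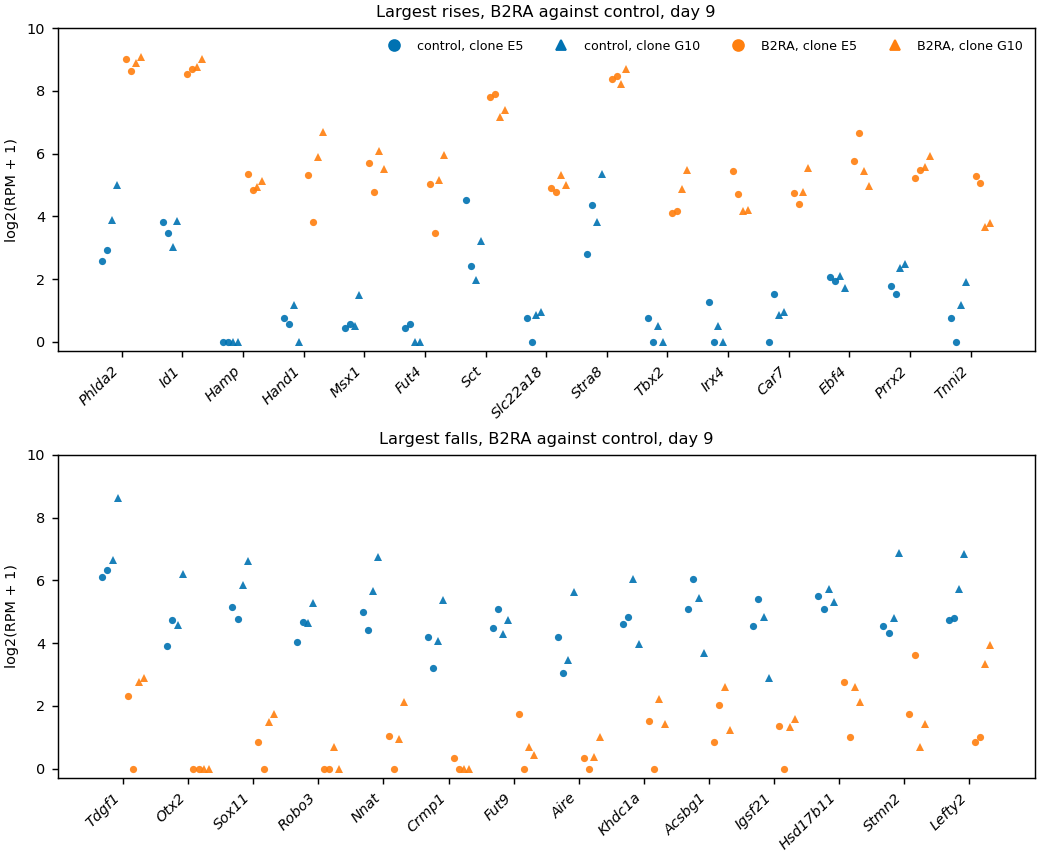
Genes with the largest rises (top) and falls (bottom) with B2RA in Zglp1 knockout clones at day 9. Each point is 1 library on the log2(RPM + 1) scale, blue for control and orange for B2RA, circles for clone E5 and triangles for clone G10. In each gene shown the 4 B2RA libraries lie on 1 side of the 4 controls; Hamp is at 0 in the controls and Otx2 at 0 with B2RA.

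Direct targets of BMP signalling rose together. Id1, an inhibitor of basic helix-loop-helix factors (chr2:152736251-152737410, plus strand, protein coding), measured 7.06 to 13.4 RPM in the 4 controls and 370.2, 418, 430.3 and 518 RPM with B2RA. Every B2RA library was far above every control, a log2 change of 5.22 ± 0.41 (limma adjusted p = 3.6e-19). Msx1, a homeobox factor of BMP-responsive mesenchyme (chr5:37820485-37824583, minus strand), measured 0.353, 0.478, 0.415 and 1.85 RPM in the controls and 50.8, 26.4, 67.3 and 45.1 RPM with B2RA, a change of 4.77 ± 0.41. Hamp, which encodes the iron hormone hepcidin and is a textbook BMP target of liver (chr7:30942368-30944032, minus strand), had no read in any control and measured 40.0, 27.4, 29.6 and 34.3 RPM with B2RA. Against a floor of 3 reads over the 4 controls (0.316 RPM) it was at least 108-fold higher; reads of its near-identical copy Hamp2 could be split with it, so the gene of origin is uncertain.

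Of 15 genes of a BMP response list, 13 were tested and 11 rose (10 without B2RA replicate 2 of clone E5), with a median change of 2.37 against 0.11 over all genes tested. The SMAD arm was included. Smad9, a receptor-activated SMAD, measured at most 0.353 RPM in the controls and 13.2, 15.2, 14.2 and 17.5 RPM with B2RA (3.89 ± 0.34). Smad9, Msx1 and Hamp passed the filter on low values only through the B2RA libraries, so the filter set their direction. The inhibitory SMADs, which feed back on the pathway, rose by 2.06 ± 0.33 (Smad6) and 1.6 ± 0.33 (Smad7), and the decoy receptor Bambi rose by 2.36 ± 0.33. Other members that rose were Id2 (2.37), Id3 (1.83), Msx2 (3.29), Tbx3 (2.41) and Gata2 (2.46).

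GATA factors bind the same core motif as the zinc finger family to which ZGLP1 is related. 4 of the 7 listed were tested and all 4 rose over the 8 libraries (3 by edgeR, without Gata4). Gata2, a factor of blood progenitors and trophoblast, measured 44.8, 40.2, 48.2 and 24.5 RPM in the controls and 226, 231, 191 and 214 RPM with B2RA. The B2RA libraries were alike and well above the controls. Gata3 rose by 1.68 ± 0.44 (limma adjusted p = 0.0019), from 2.49 to 6.35 RPM in the controls to 10.1 to 20.3 RPM. It passed the filter on low values only through the B2RA libraries, so the filter set its direction. Gata4 and Gata6 overlapped between the groups. In clone E5 their changes were -0.44 and 0.24 and did not pass, and in clone G10 they were 3.87 and 3.58 and passed.

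Transcription factors of lateral and cardiac mesoderm rose from near 0. Hand1 (chr11:57828705-57832818, minus strand), a factor of heart, lateral mesoderm and trophoblast, measured 0.705, 0.478, 1.25 and 0 RPM in the controls and 39.3, 13.2, 58.9 and 103 RPM with B2RA. The G10 libraries were higher than the E5 libraries with B2RA, and no library of the 2 groups overlapped (4.81 ± 0.52, limma adjusted p = 8.8e-13). Tbx2, a T-box repressor, measured 0.705, 0, 0.415 and 0 RPM in the controls and 16.1, 17.2, 28.1 and 44.1 RPM with B2RA (4.34 ± 0.40). Of 18 genes of this list measured, 6 were tested and 4 rose (4 without B2RA replicate 2 of clone E5); beside Hand1 and Tbx2 these were the homeobox gene Prrx2 (3.5 ± 0.39) and Smarcd3, a cardiac subunit of the BAF complex (2.18 ± 0.36). Hand1 and Tbx2 passed the filter on low values only through the B2RA libraries. The filter thus set their direction and partly fixed the count and median of this list. The summed level of the 18 genes, which needs no filter, was 28.2 to 59.3 RPM in the controls and 127 to 309.7 RPM with B2RA.

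Many markers of other lineages were too low to be tested. Over all genes tested 6.63% rose and 4.33% fell. The tested members of the definitive endoderm, extraembryonic endoderm, trophoblast and epithelial lists rose in larger shares, each by few genes. In the primitive streak and paraxial mesoderm list, T, the defining factor of the streak, had no read in any of the 8 libraries, and of 2 members tested Lhx1 fell (-2.36 ± 0.48). None of the 39 Hox genes measured passed the filter on low values. In the blood and endothelium list 1 gene was tested and it did not pass. In the definitive endoderm list 2 of 5 tested genes rose and none fell, the same counts as without B2RA replicate 2 of clone E5. These were Gata6 and Hhex, a homeobox factor of early endoderm and blood, which measured 5.99, 2.87, 4.15 and 2.31 RPM in the controls and 9.75, 14.2, 16.0 and 16.5 RPM with B2RA (1.68 ± 0.33). In the extraembryonic endoderm list 3 of 13 tested genes rose (2 without that library) and none fell. Dab2, an adaptor of endocytosis, measured 10.6, 1.91, 2.49 and 0.463 RPM in the controls and 21.9, 19.3, 33.5 and 12.5 RPM with B2RA, with no overlap (2.57 ± 0.50). Hhex and Dab2 kept their calls in all 17 alternatives, while those of Cubn and Pth1r, the other genes of the extraembryonic list that rose, were lost in 6 and 7. Hhex passed the filter on low values only through the B2RA libraries, as did Gata3 and Hand1 of the trophoblast list. The filter thus set their direction and partly fixed the counts of the definitive endoderm and trophoblast lists. Of 15 trophoblast genes 7 were tested; Gata3 and Hand1 rose, while the keratin Krt7 (-1.12) and the factor Tead4 (-1.38) fell, each in a call lost in 7 alternatives. Of 12 tested epithelial genes 3 rose, namely the keratins Krt8 (3.17 ± 0.50) and Krt18 (2.04 ± 0.36) and the desmosome gene Dsp (1.05 ± 0.30), whose call was lost in 9 alternatives, with a list median of -0.07.

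**Figure D2:**
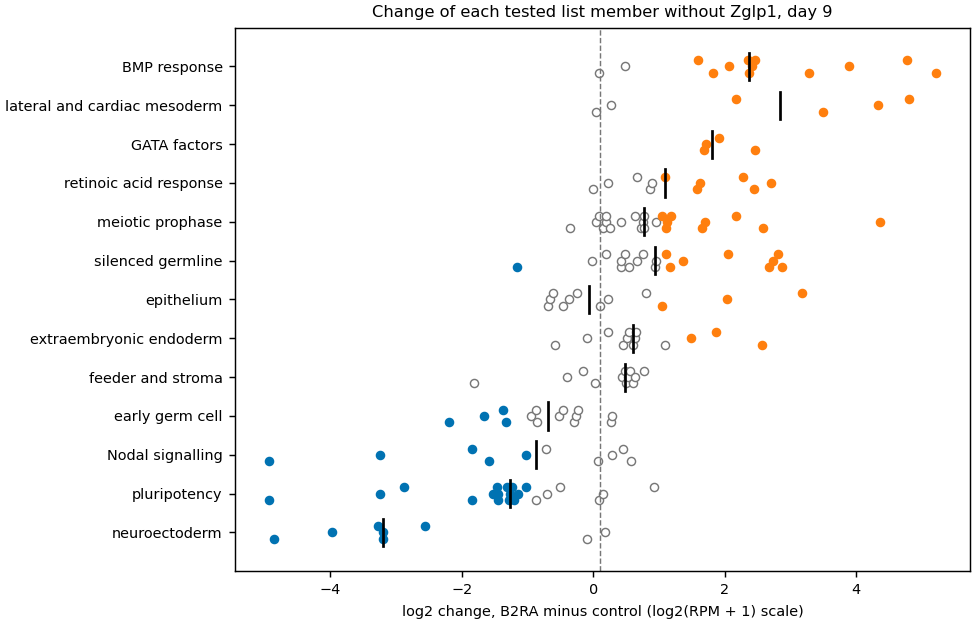
Change of each tested member of 13 gene lists, B2RA minus control, on the log2(RPM + 1) scale in Zglp1 knockout clones at day 9. Filled points passed the limma test (orange for rises, blue for falls), open points did not, black bars are list medians and the dashed line is the median of all genes tested, 0.11. The medians are 2.84 for lateral and cardiac mesoderm, 2.37 for BMP response and -3.20 for neuroectoderm. Some members passed the filter on low values only through B2RA or only through control libraries. The filter set their direction and so partly fixed these medians.

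Retinoic acid targets also responded without Zglp1. The promoter table of RefSeq (build GRCm38.p6) held 15 of the 20 genes of the retinoic acid list, and in 2 of them, Cyp26a1 and Rarb, the 250 bases before the start held a direct repeat with a spacer of 5 bases (each half-site being AGGTCA or else AGTTCA, or with G first GGGTCA or else GGTTCA, on either strand), the arrangement bound by retinoic acid receptors. The same search found it in 29 of 32851 promoters of that length (0.088%). Both stretches are shown because both genes rose, with the half-sites in capitals. Cyp26a1, which encodes the enzyme that clears retinoic acid, is on the plus strand at chr19:37697798-37701536, and its stretch is chr19:37697558-37697797, where the repeat at 37697776 to 37697792 lies on the minus strand, so its reverse complement is printed. Rarb, a retinoic acid receptor that responds to its own ligand, is on the minus strand at chr14:16430839-16819156; its 30 bases are chr14:16575506-16575535, where the repeat runs from 53 to 37 bases before the RefSeq start, inside an exon of another annotated transcript. A match describes these letters and is no evidence of binding.
Cyp26a1: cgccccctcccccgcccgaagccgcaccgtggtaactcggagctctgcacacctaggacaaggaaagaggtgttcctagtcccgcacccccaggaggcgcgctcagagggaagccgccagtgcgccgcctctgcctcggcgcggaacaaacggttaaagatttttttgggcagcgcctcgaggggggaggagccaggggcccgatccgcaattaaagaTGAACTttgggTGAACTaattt
Rarb: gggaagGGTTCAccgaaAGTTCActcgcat

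Cyp26a1 measured 10.6, 16.7, 0.830 and 4.17 RPM in the controls and 19.2, 17.2 and 26.3 RPM in the first 3 B2RA libraries, with the other, replicate 2 of clone G10, below the E5 control of 16.7 RPM. The groups overlapped, since the E5 controls were higher than the G10 controls, and the change was 1.58 ± 0.44 (limma adjusted p = 0.0042). Rarb measured 1.06, 1.91, 1.66 and 0.463 RPM in the controls and 16.6, 19.3, 7.85 and 12.5 RPM with B2RA, with no overlap (2.71 ± 0.45, limma adjusted p = 1.3e-06). It passed the filter on low values only through the B2RA libraries, so the filter set its direction. Of 11 tested genes of the list 6 rose (8 without B2RA replicate 2 of clone E5) with a median of 1.09; others among them were the transglutaminase Tgm2 (2.45), the retinaldehyde reductase Dhrs3 (1.63) and the receptor Rara (1.09), whose call was lost in 8 alternatives.

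Genes of meiosis responded in part. Stra8 (chr6:34920163-34939344, plus strand), the gatekeeper of meiotic entry, measured 5.99, 19.6, 13.3 and 40.3 RPM in the controls and 336, 356, 299 and 414 RPM with B2RA. All 4 B2RA libraries were above all controls (4.36 ± 0.49, limma adjusted p = 9.4e-12). Rec8, the meiotic cohesin subunit (chr14:55618037-55625395, plus strand), measured 39.8, 47.4, 35.3 and 24.1 RPM in the controls and 211, 219, 229 and 214 RPM with B2RA. The B2RA libraries differed little among themselves and did not overlap the controls (2.58 ± 0.30, limma adjusted p = 3.2e-11).

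Of 39 meiotic prophase genes 23 were tested, 9 rose and none fell; without B2RA replicate 2 of clone E5, 9 rose. Over all alternatives 5 to 10 rose. The median change was 0.77. Beside Stra8 and Rec8 these were the cohesin subunits Smc1b (1.18 ± 0.25) and Stag3 (1.05 ± 0.22), the synaptonemal complex genes Sycp2 (1.65 ± 0.41), Syce1 (1.12 ± 0.31) and Tex12 (2.17 ± 0.38), the helicase Hfm1 (1.1 ± 0.36) and the telomere attachment gene Terb2 (1.70 ± 0.42). Sycp3, a core of the chromosome axis, measured 30.3, 20.1, 37.4 and 44.4 RPM in the controls and 55.9, 100.4, 49.8 and 53.5 RPM with B2RA. Its libraries did not overlap, but its change of 0.95 ± 0.36 was under 2-fold and did not pass. The summed level of the 39 genes was 897 to 1056 RPM in the controls and 1871 to 1955 RPM with B2RA.

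Germline genes that DNA methylation keeps silent in other cells, and oocyte genes, were mixed. Of 19 tested genes of the silenced germline list 8 rose and Tdrd12, a gene of the piRNA pathway, fell (-1.16 ± 0.22). Without B2RA replicate 2 of clone E5, 10 rose and none fell. Taf7l, a germ cell TFIID subunit, measured 3.53, 2.87, 2.08 and 10.2 RPM in the controls and 35.0, 73.0, 26.0 and 23.9 RPM with B2RA (2.88 ± 0.41). Slc25a31, a germ cell adenine nucleotide carrier, rose by 2.74 ± 0.31, Tex101 by 2.68 ± 0.41 and the piRNA pathway gene Mael by 1.37 ± 0.25. Tuba3a and Tuba3b, also among the 8, are near-identical, so their reads could be split and each value is uncertain. Dazl (0.96 ± 0.35) and Ddx4 (0.94 ± 0.23), RNA-binding proteins of germ cells, were under 2-fold and did not pass.

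Of 28 oocyte genes 8 were tested. Sohlh2, a transcription factor of young oocytes, measured 48.2 to 91.2 RPM in the 4 controls and 172, 160.3, 168 and 160.2 RPM with B2RA (1.29 ± 0.24), and the RNA-binding protein Ybx2 rose by 1.03 ± 0.26. Ooep (-1.24 ± 0.21), Dppa5a (-1.31 ± 0.21) and Pdzk1 (-2.76 ± 0.38) fell; Dppa5a is also a pluripotency gene. Figla, which switches on egg coat genes, measured 0.705, 0, 0 and 0 RPM in the controls and 1.32, 0, 0.302 and 0.673 RPM with B2RA, too low to be tested.

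Pluripotency genes fell together. Nanog, a core pluripotency factor, measured 281, 325, 259 and 463 RPM in the controls and 125, 155, 113 and 69.3 RPM with B2RA. The groups did not overlap (-1.53 ± 0.33, limma adjusted p = 2.0e-04). Of 21 tested genes of the list 15 fell and none rose, and 15 fell without B2RA replicate 2 of clone E5; the median was -1.26. Pou5f1 (-1.20), Sox2 (-1.46) and Esrrb (-1.24) were among them.

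Of 14 early germ cell genes 4 fell, also 4 without B2RA replicate 2 of clone E5, and none rose. With TMM factors 7 fell, and by edgeR 7 fell. The gate gene Dppa3 is a member of this list and enters its sums. It was not among the 4. Prdm1, the reporter gene and a repressor that founds the germ line, measured 52.8 to 104 RPM in the controls and 28.4 to 51.4 RPM with B2RA, without overlap, and its change of -0.95 ± 0.27 was under 2-fold and passed only under 5 alternatives. Prdm14, which sets up the germ cell state, measured 67.7, 70.8, 94.6 and 48.2 RPM in the controls and 23.4, 14.2, 36.5 and 41.1 RPM with B2RA. The groups did not overlap, and their nearest libraries were both from clone G10 (-1.33 ± 0.32). Tcl1, a coactivator of AKT, fell by 2.20 on the log2 scale, the interferon-induced membrane protein Ifitm1 by 1.67 and Sox15 by 1.37. Tfap2c, Nanos3, Kit and Dnd1, all factors of primordial germ cells, overlapped between the groups, with changes of -0.27, 0.27, 0.28 and -0.52 that did not pass.

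Genes of the Nodal pathway and neural genes were also lower. Tdgf1, the Nodal co-receptor (chr9:110939603-110946158, minus strand), measured 67.7, 79.9, 99.6 and 391 RPM in the controls and 3.95, 0, 5.74 and 6.40 RPM with B2RA. Replicate 2 of the G10 controls was the highest, and no library overlapped (-4.94 ± 0.46, limma adjusted p = 1.6e-15). Tdgf1 passed the filter on low values only through the controls, so the filter set its direction. Of 10 tested Nodal genes 5 fell (3 without B2RA replicate 2 of clone E5), at a list median of -0.87, including the ligand Nodal (-1.58 ± 0.33) and the antagonist Lefty2 (-3.24 ± 0.47).

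Otx2, a factor of epiblast and forebrain that restrains germ cell fate (chr14:48657677-48673819, minus strand), measured 14.1, 25.8, 22.8 and 73.2 RPM in the controls and had no read in any B2RA library. Against the floor of 3 reads over the 4 B2RA libraries (0.271 RPM) it was at least 119-fold lower. Of 8 tested neuroectoderm genes 6 fell, with and without B2RA replicate 2 of clone E5, at a median of -3.20. Dcx, a microtubule protein of young neurons, measured 10.9, 8.61, 14.1 and 33.3 RPM in the controls and was at 0 in all B2RA libraries. Otx2 and Dcx therefore passed the filter on low values only through the controls. The filter set their direction and partly fixed the count and median of this list. The summed level of 23 neuroectoderm genes was 162 to 434 RPM in the controls and 51.7 to 62.8 RPM with B2RA. Other large falls were in Sox11 (-4.58 ± 0.51), Robo3 (-4.49 ± 0.55) and Nnat (-4.43 ± 0.48), all known from the nervous system, and in Hsd17b11, a steroid dehydrogenase that measured 33.0 to 51.5 RPM in the controls and 1.01 to 5.80 RPM with B2RA.

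Cell cycle, glycolysis and DNA methylation genes gave few calls. None of 20 G2 and M phase genes, 20 DNA replication genes and 16 glycolysis genes passed the test. Among 12 tested DNA methylation genes the cofactor Dnmt3l fell from 82.5, 53.1, 39.4 and 152 RPM to 10.3, 4.06, 6.34 and 11.4 RPM (-3.10 ± 0.55), the oxidase Tet1 fell (-1.45 ± 0.37) and Gadd45b rose (1.34 ± 0.25). Cdkn2c, a cell cycle inhibitor, rose by 2.00 ± 0.44 and Pmaip1, an apoptosis gene, fell by 2.65 on the log2 scale.

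Markers of the cells around the germ cells were measured beside these changes. Of 20 feeder and stroma genes 12 were tested and none passed, and their summed level was 295 to 688 RPM in the controls and 492 to 607 RPM with B2RA; none of the 20 was at 0 across a group. Of 14 genes of gonadal soma 2 were tested and both rose (Wnt4 1.70 ± 0.43, Gata4 1.71 ± 0.46), but 1 rose without B2RA replicate 2 of clone E5, by edgeR or with TMM factors, and none with the compared libraries alone; their summed level was 12.5 to 41.6 RPM in the controls and 39.3 to 65.8 RPM with B2RA, and the Sertoli cell gene Amh was at 0 in all 8 libraries. The part of other cells in the changes was not tested.

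Among the lists, extraembryonic endoderm held the most genes whose response differed between the clones. Signed changes were compared, so a higher change can be a larger rise or a smaller fall. Of the 432 falls with B2RA, 50 had a called clone difference. Of 9980 genes the change was higher in clone G10 than in clone E5 for 316 (3.17%) and lower for 19 (0.190%), by the limma test of the difference. Without B2RA replicate 2 of clone E5, 12 were higher and none was lower, and edgeR on the recovered reads called none (740 at an unadjusted p under 0.05). Of 13 tested extraembryonic endoderm genes 6 were among the higher, and in the definitive endoderm list Sox17, Sox7 and Gata6 were. Lama1, a laminin of basement membranes, measured 247, 161, 2.91 and 19.4 RPM in the controls and 42.2, 183, 94.2 and 23.6 RPM with B2RA. Both E5 controls were above both G10 controls, and in the B2RA libraries the clones overlapped. The summed level of the 18 extraembryonic endoderm genes was 2700.1 and 2108 RPM in the E5 controls, 399 and 568 RPM in the G10 controls, 1070.4 and 2299 RPM in the E5 B2RA libraries and 1549 and 657 RPM in the G10 B2RA libraries.

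**Figure D3:**
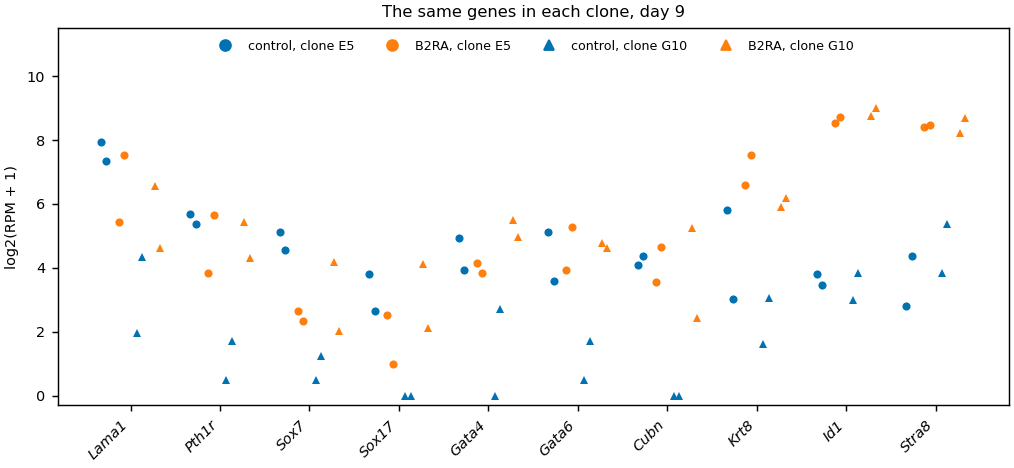
Levels of 10 genes in each clone at day 9, on the log2(RPM + 1) scale. Each point is 1 library, blue for control and orange for B2RA, circles for clone E5 and triangles for clone G10. Lama1, Pth1r and Sox7 are high in the E5 controls and low in the G10 controls, while Id1 and Stra8 respond in both clones.

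What B2RA did beyond BMP2 was tested by comparing it with BMP2 alone in the same clones; the B2RA libraries are shared with the comparison above. Of 9874 genes tested 446 (4.52%) were higher with B2RA and 275 (2.79%) lower. Without B2RA replicate 2 of clone E5 these were 346 and 143, and with TMM scaling 287 and 388. Stra8 measured 19.7, 8.66, 21.9 and 35.7 RPM with BMP2 alone, a range within that of the controls and far below the B2RA libraries (4.11 ± 0.49, limma adjusted p = 2.5e-10). Rec8 measured 44.7, 27.6, 59.3 and 43.4 RPM with BMP2 alone, again below every B2RA library (2.34 ± 0.30). Id1 measured 123, 101, 138 and 197 RPM with BMP2 alone, above every control and below every B2RA library (1.66 ± 0.41, limma adjusted p = 0.0017).

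Beyond BMP2 alone, 6 of 11 retinoic acid genes were higher (5 by edgeR), among them Cyp26a1, Rarb, Dhrs3, Tgm2 and Crabp2, the last a retinoic acid carrier. So were 7 of 13 BMP response genes (4 without B2RA replicate 2 of clone E5, 5 by edgeR), 5 of 6 lateral and cardiac mesoderm genes (4 without it) and 6 of 24 meiotic prophase genes (Stra8, Rec8, Sycp2, Msh5, Tex15 and Terb2). Hamp measured 2.27, 3.25, 4.39 and 0 RPM with BMP2 alone, below every B2RA library (3.51 ± 0.28), and Msx1 6.47, 1.62, 4.83 and 6.30 RPM, also below (3.10 ± 0.41). Both passed the filter on low values only through the B2RA libraries, so the filter set their direction. Msx1 is among the 7 BMP response genes, so the filter partly fixed that count. Zglp1 tags were 29.8, 29.2, 7.90 and 9.79 RPM with BMP2 alone and did not pass the test against B2RA (0.47 ± 0.35). Pluripotency genes were lower in 9 of 21 and early germ cell genes in 6 of 14. The neural gene Dcx was at 0 in all 4 BMP2 libraries as well.

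**Figure D4:**
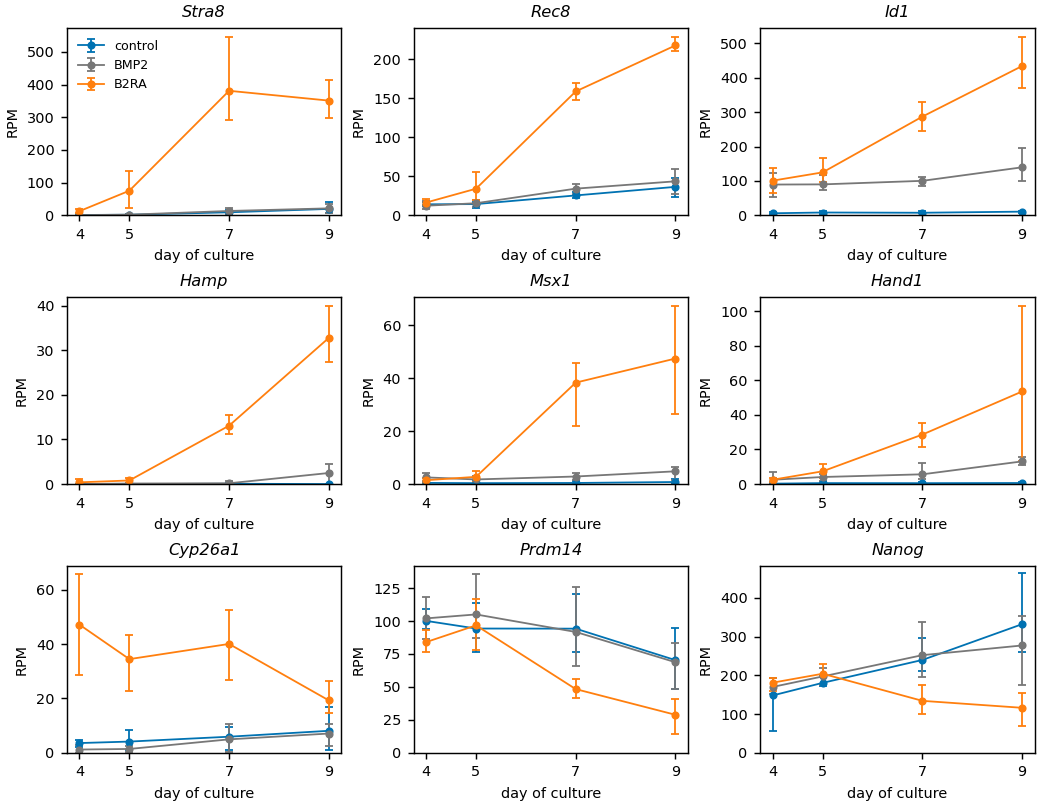
Levels of 9 genes in Zglp1 knockout clones at days 4, 5, 7 and 9. Points are means of 4 libraries (2 per clone) in RPM and bars run from the lowest to the highest library; blue is control, grey BMP2 and orange B2RA. Cyp26a1 is highest with B2RA at day 4, Stra8 at day 7, and Hamp, Msx1 and Hand1 from day 7 on.

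Earlier days, described without a test, gave the order of these changes. With B2RA the mean level of Cyp26a1 was 47.2 RPM at day 4 (28.7 to 65.7 RPM, n = 4) and 19.3 RPM at day 9, against 3.56 RPM in the day 4 controls. Id1 was at 101 RPM at day 4 and 434 RPM at day 9. Stra8 went from 13.0 RPM at day 4 through 75.4 RPM at day 5 to 381 RPM at day 7 and 351 RPM at day 9. Hamp was at 0.388 RPM at day 4, 0.804 RPM at day 5, 13.1 RPM at day 7 and 32.8 RPM at day 9, and Msx1 at 1.45, 2.73, 38.3 and 47.4 RPM. At day 5 Prdm14 (96.7 RPM with B2RA, 94.3 RPM in controls) and Nanog (204 and 180.5 RPM) overlapped between the groups. Both were lower with B2RA at day 7, at 48.3 against 94.2 RPM for Prdm14 and 134 against 239.6 RPM for Nanog.

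The response was then compared with that of Stra8 knockout clones, which keep Zglp1. Signed changes with B2RA were compared, so a higher change can be a larger rise or a smaller fall. Of 10648 genes tested the change was higher in the Zglp1 knockout for 182 (1.71%) and lower for 674 (6.33%). Without B2RA replicate 2 of clone E5 these were 137 and 339, and by edgeR 155 and 176. The lower changes included many genes of meiosis. Of the 23 meiotic prophase genes that passed the filter on low values among the 8 libraries, 13 responded less (8 without that library, 9 by edgeR), at a median of -1.19 against -0.12 over all genes. A further 13 passed it only with the Stra8 knockout libraries included, so the filter set their direction and they are left out of the count. Tex12 rose to 161, 161, 135 and 169 RPM in the Stra8 knockout B2RA libraries (clone B6 replicates 1 and 2, then clone F6), against 18.7, 35.5, 26.9 and 19.2 RPM without Zglp1. No library of the 2 sets overlapped, and the responses differed by -3.46 ± 0.54 (limma adjusted p = 9.9e-07).

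Figla and Zfp541, a regulator of oocytes and a gene of prophase, were near 0 without Zglp1. Both passed the filter only through the Stra8 knockout libraries, so the filter set their direction. Figla measured 25.1 RPM or more in all 4 libraries of the Stra8 knockout with B2RA (-4.13 ± 0.51), while no Zglp1 knockout B2RA library passed 1.32 RPM. Zfp541, which encodes a zinc finger protein, measured 62.8, 71.2, 53.8 and 52.6 RPM there and at most 2.72 RPM without Zglp1 (-4.75 ± 0.52). By edgeR on the recovered reads neither difference passed (adjusted p = 0.99 for Figla and 1 for Zfp541). Of the 19 silenced germline genes that passed the filter among the 8 libraries 11 responded less, at a median of -1.43, also 11 without B2RA replicate 2 of clone E5 and 11 by edgeR. Rec8 also responded less (-1.56 ± 0.43), reaching 537 to 643 RPM in the Stra8 knockout.

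By the limma test some genes had a higher signed change without Zglp1 than without Stra8. Msx1 measured 24.3, 24.9, 6.96 and 6.26 RPM in the Stra8 knockout B2RA libraries, all below the 26.4 RPM that was the lowest without Zglp1 (1.95 ± 0.58, limma adjusted p = 0.016). Hamp measured at most 10.6 RPM in the 4 libraries there (2.62 ± 0.40, limma adjusted p = 7.3e-07). By edgeR neither passed (adjusted p = 0.11 for Msx1 and 1 for Hamp). The difference was also positive for 4 of 16 glycolysis genes, Hk1, Hk2, Pgam1 and Eno1, by 1.03 to 1.73. Without Zglp1 the summed level of the 16 genes was 8313 to 12095 RPM in controls and 5196 to 9066 RPM with B2RA. Without Stra8 it was 12912 to 18461 RPM in controls and 4458 to 9929 RPM with B2RA. For this list the positive difference thus went with a smaller fall of the sum without Zglp1. Id1 (-0.41 ± 0.57), Hand1 (1.81 ± 0.74), Gata2 (0.14 ± 0.53), Tcl1 (-0.08 ± 0.41) and Nanog (0.28 ± 0.47) did not pass the test of the difference.

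**Figure D5:**
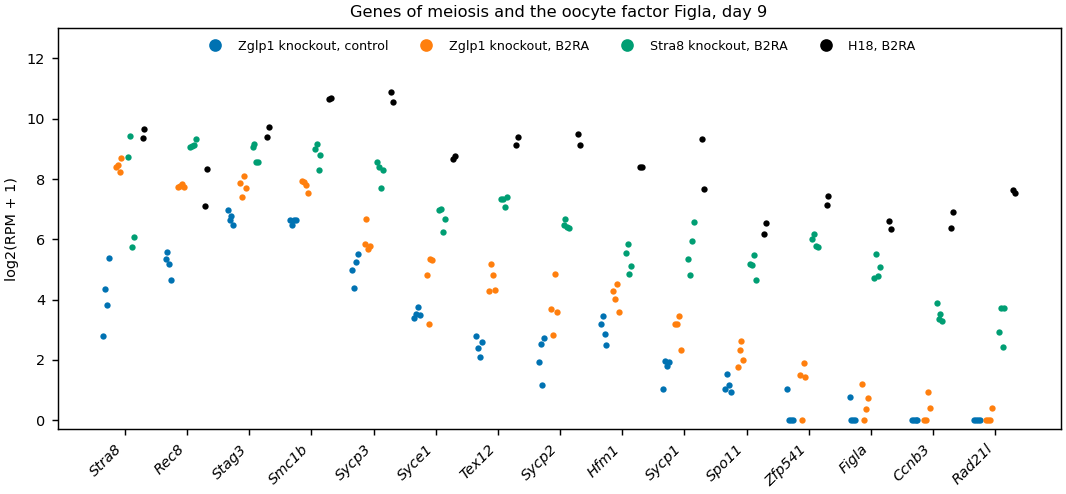
Levels of 14 genes of meiosis and of Figla at day 9, on the log2(RPM + 1) scale. Each point is 1 library; blue and orange are Zglp1 knockout control and B2RA, green is Stra8 knockout B2RA and black is H18 B2RA. Rec8 lies at 211 to 229 RPM without Zglp1 and 138 to 321 RPM in H18, while Rad21l, Ccnb3 and Figla lie near 0 without Zglp1.

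Against H18, which carries Zglp1, the B2RA libraries alone were compared, so line and genotype cannot be told apart. Of 10246 genes 1583 (15.4%) were higher in the Zglp1 knockout and 2147 (21.0%) lower. Of the 23 meiotic prophase genes that passed the filter among the 8 libraries 18 were lower, with and without B2RA replicate 2 of clone E5 and by edgeR, at a median of -2.89 against -0.09 over all genes tested. The 15 that passed it only through H18 had to be lower and are not counted. Rad21l and Ccnb3 are among these 15, and their levels are described only. Rad21l, a meiotic cohesin subunit, measured 196 and 185 RPM in H18 and 0, 0, 0 and 0.337 RPM in the knockout. Ccnb3, a cyclin of meiosis, measured 81.7 and 120.4 RPM in H18 and 0, 0, 0.906 and 0.337 RPM in the knockout. The summed level of the 39 meiotic genes was 12125 and 13536 RPM in H18, against 1871 to 1955 RPM in the knockout.

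Stra8, Rec8, Psmc3ip (-0.73), Mnd1 (0.57) and Trip13 (0.38) were the 5 of the 23 that were not called. Stra8 measured 658 and 805 RPM in H18, above the knockout libraries, with a difference of -1.06 ± 0.60 that did not pass (limma adjusted p = 0.13). Rec8 measured 138 and 321 RPM in H18, on either side of the knockout libraries (0.05 ± 0.37, limma adjusted p = 0.91). Id1 (-0.10 ± 0.50), Msx1 (0.06 ± 0.50), Tbx2 (-0.07 ± 0.49) and Gata2 (0.35 ± 0.46) did not pass either. Hand1 measured 2.93 and 0.281 RPM in H18, below every knockout library (4.27 ± 0.64, limma adjusted p = 1.1e-08). It passed the filter on low values only through the knockout libraries, so the filter set its direction.

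The early germ cell and pluripotency lists lay between control and H18 levels. Of 14 early germ cell genes 13 were higher in the knockout than in H18, at a median of 2.48. Their summed level was 3311 to 5232 RPM in the knockout controls, 1832 to 2809.9 RPM with B2RA and 348 to 452 RPM in H18 with B2RA. The gate gene Dppa3, whose level is no finding, is among the 13 and in these sums. Of 18 tested pluripotency genes 15 were higher, at a median of 2.11; the summed level of 22 was 7087 to 9256 RPM in the controls, 3320.2 to 3925 RPM with B2RA and 515 to 793 RPM in H18. The Stra8 knockout, which keeps Zglp1, was also between these levels with B2RA. Its sums were 1417 to 2187 RPM for the early germ cell list and 2922 to 3729.6 RPM for the pluripotency list. Between the Zglp1 and Stra8 knockouts the response differed in 0 of 14 early germ cell genes. Of 22 tested pluripotency genes it differed in 1, Lefty2. Nanog measured 6.19 and 6.46 RPM in H18, against 69.3 to 155 RPM in the Zglp1 knockout (3.94 ± 0.41). It passed the filter on low values only through the knockout libraries, so the filter set its direction. Such members are kept in the pluripotency count against H18, so the filter partly fixed that count and median. The summed levels need no filter. Of 16 glycolysis genes 15 were higher than in H18 (median 2.17), as were 13 of 19 cholesterol synthesis genes (median 1.37), while 3 of the 11 retinoic acid genes that passed the filter among the 8 libraries were lower (4 by edgeR), among them Cyp26a1, at 149 and 388 RPM in H18 (-3.61 ± 0.54).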

How the data were processed

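The authors deposited gene levels as RPM, scaled to 1000000 reads of endogenous genes per library, for 25706 genes and 3 transgene rows, and columns of the overexpression lines, whose transgene rows lift the total, hold a signal on that scale as deposited. Per the labels, 3′ ends were amplified from 1 ng of RNA. Per the submitters' processing notes, the tools were HTSeq 0.9.1, TopHat2 2.1.0 with Bowtie 1.1.2 listed beside it, cutadapt 1.9.1 and SAMtools 1.3, on mm10; their roles and the annotation are not given in the sources used here. Without molecular identifiers amplified copies could not be removed, so floors (3 reads over a group) cover counting error only.

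Of 195 value columns 194 matched a sample and 1 matched none and was not used; 2 of 196 samples had no column, and 3 lines shifted by an empty cell were realigned. Whole reads were recovered from the step between values (100.0% of values under 100 reads were whole within 0.05). A limma 3.58.1 model (R 4.3.3) was fitted to log2(RPM + 1) of 191 PGCLC libraries in 98 groups, so the spread was shared over groups. Genes with at least 10 RPM in at least 2 compared libraries were tested, with Benjamini-Hochberg adjustment over all of them. A gene that reached 10 RPM only in libraries of a single group had its direction set largely by this filter. List counts include such genes unless stated. Contrasts averaged the clones with equal weight. The test was checked on simulated data.

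Leading genes were the 15 largest rises and falls whose higher group averaged 20 RPM or more, the same direction in both clones and no overlap; predicted genes were counted, not named (1 of the falls). Members, lists and comparisons were chosen with earlier results of these data known. The alternatives were pseudocounts of 0.5 and 5, no filter, TMM factors, a replicate block, the compared libraries alone, array weights, edgeR 4.0.16 on recovered reads and leaving out each library. Same-numbered B2RA and control libraries deviated together with a correlation of 0.07 in clone E5 and -0.12 in clone G10 over 9980 genes, so replicate numbers were not taken as pairs. Positions are from the GRCm38 annotation and promoter sequences from RefSeq. Some list members are counted but not reported by name here.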

Additional observations from a re-analysis of the deposited data

Results flagged for a closer look

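For 11 named genes the response to B2RA differed between the clones by the limma test of the difference (clone G10 minus clone E5, log2). Gata4 and 9 members of the endoderm lists had the more positive change in clone G10: Gata4 4.30, Gata6 3.34, Sox17 4.60, Sox7 4.56, Lama1 3.61, Col4a2 3.64, Cubn 3.95, Amn 3.48, Srgn 4.25 and Pth1r 4.53. Tnni2, a troponin of fast muscle, had the smaller response in clone G10, with a difference of -2.60. Each of these 10 genes was higher in the controls of clone E5 than in those of clone G10; Pth1r, a parathyroid hormone receptor, measured 50.1 and 40.2 RPM in the E5 controls and 0.415 and 2.31 RPM in the G10 controls. With B2RA it measured 13.2 and 49.7 RPM in clone E5 and 42.0 and 18.9 RPM in clone G10, so the clones overlapped.

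All but 2 of the calls were lost without B2RA replicate 2 of clone E5. There, limma adjusted p stayed under the threshold for Srgn (0.029) and Pth1r (0.0063) and was 0.063 for Gata4 and Sox17, 0.088 for Sox7, 0.095 for Lama1, 0.23 for Cubn, 0.25 for Col4a2, 0.26 for Gata6, 0.52 for Tnni2 and 0.96 for Amn. Without that library the differences themselves were 5.10 for Srgn, 5.45 for Pth1r, 4.14 for Gata4, 3.84 for Sox17, 4.40 for Sox7, 4.65 for Lama1, 4.50 for Cubn, 4.10 for Col4a2, 4.01 for Gata6, -2.70 for Tnni2 and 2.71 for Amn. By edgeR on the recovered reads no adjusted p was below 0.34.

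In 20 of 250 groups of 4 (the B2RA and the control libraries of 125 genes, the leading genes and list members named here), 1 library stood apart by Dixon's ratio on the log2(RPM + 1) scale, above the critical value of 0.829; chance sets apart about 1 group in 20. Among the B2RA libraries, replicate 2 of clone E5 stood apart at 100.4 RPM for Sycp3, 154 RPM for Gadd45b, 2.03 RPM for Nodal, 2.03 RPM for Dhrs3 and 0 RPM for Igsf21 and Tead4. The others were Hk1 at 42.9 RPM, Robo3 at 0.604 RPM, Crmp1 at 0.264 RPM and Rad21l at 0.337 RPM, the last 3 with no read in the other libraries. Among the controls, replicate 2 of clone G10 stood apart at 1001 RPM for Ifitm1, 148 RPM for Tcl1, 313 RPM for Sox2 and 1.85 RPM for Msx1, and replicate 1 at 11.6 RPM for Pdzk1. Clone E5 stood apart at 88.5 RPM for Smc1b and at 1.06 RPM for Zglp1, and, with the other controls at 0, at 1.06 RPM for Zfp541, 0.705 RPM for Figla and 0.353 RPM for Smad9.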

How the results depend on the processing

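Against control 17 alternatives were tried. The 29 named leading genes kept their calls in each (Aire was tested in 15), which their choice for large changes without overlap partly fixed. Of 118 called genes among 346 named and tested, 87 kept theirs in each alternative in which they were tested. For 7 of the 118 this was not all alternatives. None reversed. In the other comparisons 2 values of named genes reversed: against the Stra8 knockout Irx4 (1.75) went to -0.98 by edgeR, and against H18 Sox17 (0.10, not called) went to -1.61 without H18 replicate 2 and lay between -1.61 and 0.60 with each library left out in turn. The depth of B2RA replicate 2 of clone E5, 1.0143 RPM a read, limits low genes.

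Against control, the rises (662) went to 390 with a pseudocount of 5, 1130 with no filter, 431 with TMM factors, 418 with the compared libraries alone and 430 with array weights. The falls (432) went to 254 with a pseudocount of 5, 846 with no filter and 232 with the compared libraries alone. Clone differences (335) went to 602 with no filter, 67 with array weights, 0 with the compared libraries alone (510 genes at an unadjusted p under 0.05) and 0 by edgeR (740 genes). Calls against BMP2 (721) went to 352 with a pseudocount of 5, 1296 with no filter, 314 with the compared libraries alone and 371 with array weights. Calls against the Stra8 knockout (856) went to 304 with the compared libraries alone and 331 by edgeR. Fitting without a filter tests more genes and the compared libraries alone are fewer; otherwise the cause was not tested. For the Stra8 comparison the share of calls with a higher change in the Zglp1 knockout was 21.3%, 46.8% by edgeR and 37.5% with TMM factors. Against BMP2 the higher share was 61.9% and 42.5% with TMM factors.

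Leaving out each library in turn gave 558 to 754 rises, 276 to 748 falls, 12 to 1408 clone differences, 489 to 1204 calls against BMP2, 476 to 1482 against the Stra8 knockout and 3114 to 3913 against H18. The lowest falls, clone differences and calls against BMP2 and the Stra8 knockout came without B2RA replicate 2 of clone E5 and the highest without its replicate 1; a lone library was taken to vary like the other groups. The replicate block gave 669 rises, 439 falls, 443 clone differences and 756, 978 and 3978 calls in the other comparisons. With the pairing crossed in clone G10, chosen after seeing the data, 669 rose and 439 fell.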

Other observations

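Of the 15 largest rises with B2RA, 4 lay within chr7:141278330-143503150 (GRCm38), a window chosen after their values were seen. These were the imprinted genes Phlda2 and Slc22a18, which are neighbours, the hormone gene Sct and Tnni2. Phlda2, which restrains placental growth (chr7:143501545-143503150, minus strand), measured 4.94, 6.70, 13.7 and 31.0 RPM in the controls and 519.8, 394, 479 and 547 RPM with B2RA (5.32 ± 0.44). Slc22a18 (chr7:143473736-143499334, plus strand) measured 0.705, 0, 0.830 and 0.926 RPM in the controls and 29.2, 26.4, 38.7 and 31.3 RPM with B2RA (4.36 ± 0.46). Sct, which encodes secretin (chr7:141278330-141279133, minus strand), measured 21.9, 4.31, 2.91 and 8.33 RPM in the controls and 223, 236, 142 and 167 RPM with B2RA (4.54 ± 0.50). In all 3 genes every B2RA library lay above every control. Slc22a18 and Tnni2 passed the filter on low values only through the B2RA libraries, so the filter set their direction. Of 30 tested genes in the window 9 rose, with a median change of 0.61 against 0.11 over all genes tested. The 9 include the 4 genes around which the window was drawn, so this choice partly fixed the count and median. The imprinted gene H19, a non-coding RNA next to Igf2, was among the 9; it measured 292, 434, 383 and 310.2 RPM in the controls and 2255, 2926, 742 and 1637 RPM with B2RA (2.26 ± 0.51). The imprinted genes Igf2 (1.11), Cdkn1c (0.64) and Kcnq1ot1 (0.13) of the same window did not pass the limma test.

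Enzymes that add fucose to surface glycans moved in opposite directions. Fut4 measured 0.353, 0.478, 0 and 0 RPM in the controls and 32.1, 10.1, 35.0 and 60.6 RPM with B2RA (4.66 ± 0.42, limma adjusted p = 2.0e-16). Fut9 measured 21.2, 33.0, 18.7 and 25.5 RPM in the controls and 2.37, 0, 0.604 and 0.337 RPM with B2RA (-3.93 ± 0.46, limma adjusted p = 2.0e-11). Fut4 passed the filter on low values only through B2RA libraries and Fut9 only through controls, so the filter set both directions. Other large rises were in Irx4, a ventricular homeobox gene, which measured 1.41, 0, 0.415 and 0 RPM in the controls and 42.4, 25.4, 16.9 and 17.5 RPM with B2RA (4.19 ± 0.42), in the carbonic anhydrase Car7 (4.03 ± 0.37) and in the transcription factor gene Ebf4 (3.76 ± 0.36). Ebf4 measured 2.31 to 3.32 RPM in the controls and 30.6 to 101 RPM with B2RA. The filter on low values set the direction of Irx4 and Ebf4 in the same way, through the B2RA libraries. Among the other large falls were Crmp1, a gene of growing axons (-4.12 ± 0.47), Aire (-3.65 ± 0.45), Khdc1a (-3.58 ± 0.50), Acsbg1, an acyl-CoA synthetase (-3.38 ± 0.49), Igsf21 (-3.35 ± 0.38) and Stmn2, a neuronal stathmin (-3.27 ± 0.49).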
